A study of Saccharomyces cerevisiae with 13 samples.

Results

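Break-Seq labels the DNA ends of broken chromosomes with biotin inside agarose plugs, captures the labelled fragments and sequences them, so that a peak marks a stretch of the genome where labelled ends accumulated. The peaks described here are those called in budding yeast mec1 cells recovering from hydroxyurea (HU) at places where no peak had been called during HU. They were chosen by their measured positions, as the recovery peaks that shared no base with a peak in any of the 3 mec1 lists called from an HU library alone (Exp A, Exp B and Control). By this choice 42 of the 198 recovery peaks of Exp A (21.2%, exact 95% Clopper-Pearson interval 15.7 to 27.6) and 86 of the 209 of Exp B (41.1%, 34.4 to 48.1) lay outside HU peaks, 128 of 407 in all. The remaining 156 and 123 recovery peaks lay over an HU peak and serve as the comparison. The intervals cover counting error only, and because the positions chose the peaks, the counts are a description without a test.

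The recovery and HU lists came from the strain WFA73, which carries the mec1-1 allele, and the lists named WT from the MEC1 strain WFA72. All HU and recovery cells had been held in G1 with 3 µM alpha factor and released into 200 mM HU for 1 h, and the recovery cells then spent 1 h in medium without HU. The mec1 recovery was sampled in Exp A and Exp B and the WT recovery once, in Exp C. Per the labels, a recovery list was called against the HU library of its own experiment, so stretches equally labelled at both times are left out of it by construction. Nothing in the labels says whether Exp A and Exp B began from separate colonies.

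Mec1 is the budding yeast counterpart of the checkpoint kinase ATR. HU inhibits ribonucleotide reductase, the enzyme that makes deoxyribonucleotides, and so slows replication forks. In cells with Mec1 the checkpoint holds back late origins and keeps slowed forks intact, while in mec1 mutants forks are known to collapse in HU and chromosomes to break during and after the exposure.

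All 13 peak lists of the series together hold 3709 peaks. The 3 HU lists used for the choice held 138 (Exp A), 151 (Exp B) and 265 peaks (Control) and together covered 11.8% of the nuclear genome. The recovery lists covered 8.12% (Exp A) and 8.62% (Exp B), and the peaks outside HU peaks 1.55% and 2.81%. No read counts come with the lists, so the depth of each library is unknown. The Control HU list was the longest and overlapped the most recovery peaks, 110 in Exp A and 89 in Exp B. The HU list of Exp A overlapped 91 and 69 of them, and that of Exp B 108 and 61.

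Only a minority of these peaks recurred. Of the 42 in Exp A, 14 (33.3%, 19.6 to 49.5) were overlapped by an Exp B recovery peak, and every one of the 14 Exp B partners was also outside HU peaks. Of the 86 in Exp B, 18 (20.9%, 12.9 to 31.0) were overlapped by an Exp A recovery peak, 14 of them by one outside HU peaks and 4 by one that lay over an HU peak. Over all recovery peaks 45.5% of Exp A and 43.1% of Exp B were overlapped by the other list. Among the recovery peaks over HU peaks it was 76 of 156 in Exp A (48.7%, 40.6 to 56.8) and 72 of 123 in Exp B (58.5%, 49.3 to 67.3). The share outside HU peaks was therefore below the share over them in both experiments. The intervals treat peaks as independent and cover counting error only, so they were not used to judge the difference. The choice used the positions of both sets, so no test of this difference was made.

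Counted in bases, the other experiment's recovery peaks covered 28.4% of the Exp A peaks outside HU peaks and 35.9% of those over them. In Exp B the figures were 16.1% and 40.3%. Wide peaks meet other peaks more easily, and a split at each list's median width was made after the values were seen. Among the narrower peaks 8 of 28 outside HU peaks recurred in Exp A against 35 of 71 over them, and 13 of 62 against 29 of 43 in Exp B. Among the wider peaks it was 6 of 14 against 41 of 85 in Exp A and 5 of 24 against 43 of 80 in Exp B. The lower recurrence of the Exp B peaks was thus seen in both width classes, while the wider Exp A peaks recurred about as often whether or not they lay over an HU peak.

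The 14 recurring pairs formed 14 separate regions on 9 chromosomes, 3 each on chromosomes IV and X and 2 on chromosome XV. They spanned 1877 to 13283 bp (median 4207.5) and 83.4 kb in all. In 13 of the 14 the stretch common to both experiments was at least 50% of the shorter peak, the exception being a region on chromosome IV with 46.1%. The midpoints of the paired peaks lay within 1 kb of each other in 7 regions and at most 2004 bp apart. The nearest HU peak was 92 to 31413 bp away (median 15133) and closer than 5 kb in 5 regions. The centres of the common stretches all lay at least 28.0 kb from a chromosome end and 56.9 kb from a centromere.

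**Figure D1:**
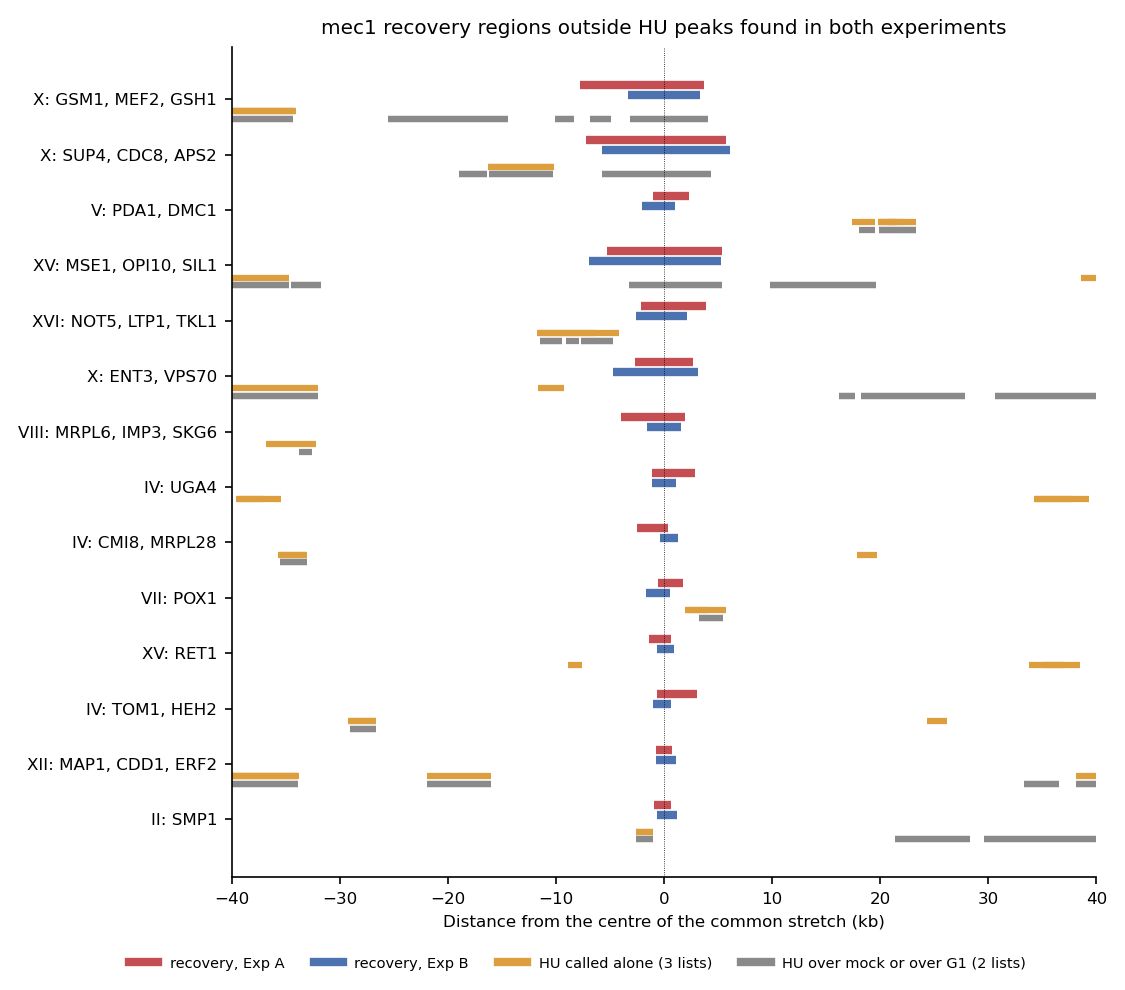
The 14 regions called outside HU peaks in both experiments, in order of mean score percentile from top to bottom, with the distance in kb from the centre of the stretch common to both recovery peaks on the horizontal axis. Bars mark recovery peaks of Exp A and Exp B, HU peaks called alone (3 lists merged) and HU peaks called over mock or over G1 (2 lists merged); no HU peak called alone touches a recovery bar, while a bar over mock or G1 lies under 3 of the regions.

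The strength of these regions differed between the experiments. The deposited score is the authors' value per peak on a scale the files do not state, so it is given with its rank within its own list, as the percentile from the lowest score upward with tied peaks at their mean rank. In only 4 regions did both peaks rank in the upper 50% of their lists, in 3 both ranked in the lowest 25%, and neither experiment ranked higher throughout. Positions below are 1-based on sacCer3.

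Chromosome X held the region with the highest mean of both percentiles and the widest region. The first ran from chromosome X 223642 to 235104, with a score of 1808.35 in Exp A (percentile 85.4) and 1522.15 in Exp B (86.1), and the nearest HU peak was 26297 bp away. It took in all of GSM1, which encodes a zinc cluster protein, MEF2, a mitochondrial translation factor, the snoRNA gene SNR37 and 1 tRNA gene, and the end of GSH1, the first enzyme of glutathione synthesis. The Exp A peak covered 38.5% of GSH1 and the Exp B peak 17.4%, while SET4 and PAM16, a part of the mitochondrial import motor, lay in the Exp A peak alone. The second ran from chromosome X 541252 to 554534 and was placed higher in Exp B (2255.85, percentile 93.3) than in Exp A (836.85, 63.6). Both of its peaks covered the whole of CDC8, the thymidylate kinase that makes a precursor of dTTP, the tyrosine tRNA gene SUP4, the clathrin adaptor subunit APS2, the kinase gene PTK2, the centromere and promoter factor CBF1 and MNN14. An HU peak lay 2949 bp from it.

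On the right arm of chromosome V, 546485 to 550838, the peaks scored 1361.98 in Exp A (percentile 80.8) and 698.85 in Exp B (70.8). The common stretch lay over DMC1, the meiotic recombinase, and the downstream part of PDA1, which encodes a subunit of pyruvate dehydrogenase. The Exp A peak continued over ISC10, a meiosis-specific gene, and this region was the closest of the 14 to a chromosome end. On chromosome XV 262646 to 275025, with scores of 825.3 (62.6) and 757.35 (73.2), both peaks covered OPI10, SIL1, a nucleotide exchange factor of the endoplasmic reticulum, the glucanosyltransferase gene GAS5, the transcription factor gene YAP7, MDM38 and MIM1, both of mitochondrial membranes, and 1 tRNA gene. The Exp B peak also reached 17.0% of SMC5, a component of the Smc5-Smc6 repair complex.

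In 2 regions the Exp B peak ranked high and the Exp A peak below the middle of its list. On chromosome XVI 690438 to 696983 the Exp B score was 1852.98 (percentile 88.0) and the Exp A score 467.05 (42.9). The common stretch held LTP1 and TKL1, the transketolase of the pentose phosphate pathway, and part of NOT5 of the CCR4-NOT complex, and an HU peak lay 1547 bp away. In a region of chromosome X around ENT3, an epsin of vesicle traffic, the scores were 1087.78 (80.9) in Exp B and 339.45 (35.4) in Exp A.

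In 3 regions the ranks ran the other way. Chromosome VIII 389428 to 395384 scored 1686.49 (83.8) in Exp A and 88.75 (15.3) in Exp B, with MRPL6 of the mitochondrial ribosome and IMP3 of the small subunit processome in the common stretch. Chromosome IV 83942 to 87897 scored 883.29 (67.2) and 121.06 (23.0). Both of its peaks covered all of UGA4, the permease for gamma-aminobutyrate, and of all 14 regions it lay farthest from an HU peak. Chromosome IV 1383442 to 1387289 scored 1057.96 (74.7) and 81.71 (12.9), and its peaks shared only 785 bp, over parts of CMI8 and MRPL28. MFA1, which encodes the mating pheromone a-factor, and the TFIIH subunit gene TFB3 lay in the Exp A peak and part of STP1 in the Exp B peak.

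The last 5 regions ranked in the lower 50% of both lists. Chromosome VII 107796 to 111220, over the fatty acyl-CoA oxidase gene POX1, scored 192.2 and 197.62 and lay 175 bp from an HU peak. Chromosome XV 728956 to 731250 scored 277.79 and 121.29 over the 3′ part of RET1, which encodes a large subunit of RNA polymerase III. Next to the MFA1 region, chromosome IV 1378514 to 1382574 scored 89.75 and 61.51 over the end of the ubiquitin ligase gene TOM1. Its Exp A peak covered all of HEH2, which encodes an inner nuclear membrane protein, and its Exp B peak 8.03% of that gene. Chromosome XII 626225 to 628101 scored 81.99 and 57.59 over the cytidine deaminase gene CDD1 and most of ERF2, a subunit of a palmitoyltransferase. Chromosome II 592119 to 594195, 92 bp from an HU peak, scored 97.18 and 50.9 over parts of RPS6B and of the transcription factor gene SMP1. The last 3 of these were the regions in the lowest 25% of both lists, and all 6 of their scores were under 100.

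Summed over the 14 regions, 58 protein-coding genes were overlapped in at least 1 experiment, and 41 were touched by both of a region's peaks. The sum counts PFA5 once in each of the neighbouring MFA1 and HEH2 regions of chromosome IV. Of 6002 nuclear protein-coding genes, Exp A peaks outside HU peaks overlapped 134 (2.23%), Exp B peaks 230 (3.83%) and both experiments 42 (0.700%). The gene that makes the difference between 41 and 42, YNL193W, was touched at separate places by a peak of each experiment. Of 275 tRNA genes, 8 were overlapped in Exp A, 7 in Exp B and 3 in both, and those 3 were SUP4 and the 2 tRNA genes already described, on chromosomes X and XV. Because a gene counted from 1 bp of overlap, a wide peak counts many genes at once.

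The 4 Exp B peaks that met an Exp A peak lying over HU did so only at their edges. They shared 23 bp at KOG1 (chromosome VIII 475971 to 479124, score 1897.82), 264 bp at SDL1 (chromosome IX 28633 to 30265), 402 bp at KAP95 (chromosome XII 823411 to 825196) and 549 bp at CUP9 (chromosome XVI 212809 to 215126). KOG1 encodes a subunit of TOR complex 1 and KAP95 an importin. In each case the Exp A partner itself overlapped an HU peak, by 2022 to 2970 bp.

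The other 28 peaks of Exp A and 68 of Exp B were met by no recovery peak of the other experiment. In both experiments they held the highest score of the peaks outside HU peaks. Their median score percentile was 24.7 in Exp A, against 52.8 for the recurring peaks, and 33.7 in Exp B, against 30.9. The highest unpaired Exp A peak was chromosome XIV 275795 to 284569 (3100), over the chitin synthase gene CHS1 and the importin gene SRP1. A score of 3100 was shared by 12 peaks of Exp A and 10 of Exp B. It was followed by chromosome I 69080 to 73582 (1997.45), over CDC19, the main pyruvate kinase, and CYC3. Recurring Exp A peaks scored up to 1808.35, above the unpaired Exp A peaks named next. Chromosome VII 834661 to 847486 (1561.55) reached from ERG1, the squalene epoxidase of ergosterol synthesis, to PUS6. Chromosome XII 616722 to 626114 (1195.42) covered VPS34, the phosphatidylinositol 3-kinase, and ended beside the recurring CDD1 region, and chromosome VIII 43657 to 47095 (707.48) lay over ECM29 and OCA5.

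In Exp B 3 unpaired peaks scored 3100. The first, chromosome XIII 247903 to 258196, covered ERG6 of ergosterol synthesis, the oxidant-response factor gene YAP1 and SPT5, a transcription elongation factor. Another, chromosome XVI 571788 to 577075, lay over HAA1, a transcription factor of the weak acid response, and SUT2. Chromosome XII 421117 to 426219 lay over RRN5, needed for RNA polymerase I transcription, PUT1 and NHA1, and only 97 bp from an HU peak. Next came chromosome VII 556598 to 560650 (2250.08), over CAX4 and ACB1, and chromosome X 206057 to 219897 (2174.89), over UTP10, GZF3 and the chaperonin gene CCT7. The latter was also among the 3 widest peaks, at 13841 bp. The other two were chromosome II 406321 to 420346 (14026 bp, score 150.91), over MIS1, RPL19A and the ubiquitin-conjugating enzyme gene UBC4, and chromosome XIII 169577 to 183461 (13885 bp, score 1061.01), over RSE1 and GAL80, the galactose regulon repressor.

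Recovery peaks outside HU peaks were narrower and ranked lower than those over them in both experiments. Their median width was 2825 bp in Exp A and 2513.5 bp in Exp B (mean 2669 ± 220, SD, n = 2 lists), against 4502.5 and 5225 bp (4864 ± 511). Their median score percentile was 26.8 and 32.8 (29.8 ± 4.25), against 54.8 and 59.3 (57.1 ± 3.20). The lowest 25% of scores held 18 of 42 and 34 of 86 of them, against 31 of 156 and 18 of 123 over HU peaks. A narrow peak is less likely to touch an HU peak, so the choice favours narrow peaks by construction, and the median score was higher among wider peaks in both lists. Among peaks no wider than the list's median, the 28 of Exp A outside HU peaks had a median percentile of 23.5 against 51.5 over HU peaks, and the 62 of Exp B 24.2 against 40.7. Among peaks wider than the list's median, the 14 of Exp A outside HU peaks had a median percentile of 63.1 against 57.6 over HU peaks, and the 24 of Exp B 72.7 against 67.9.

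**Figure D2:**
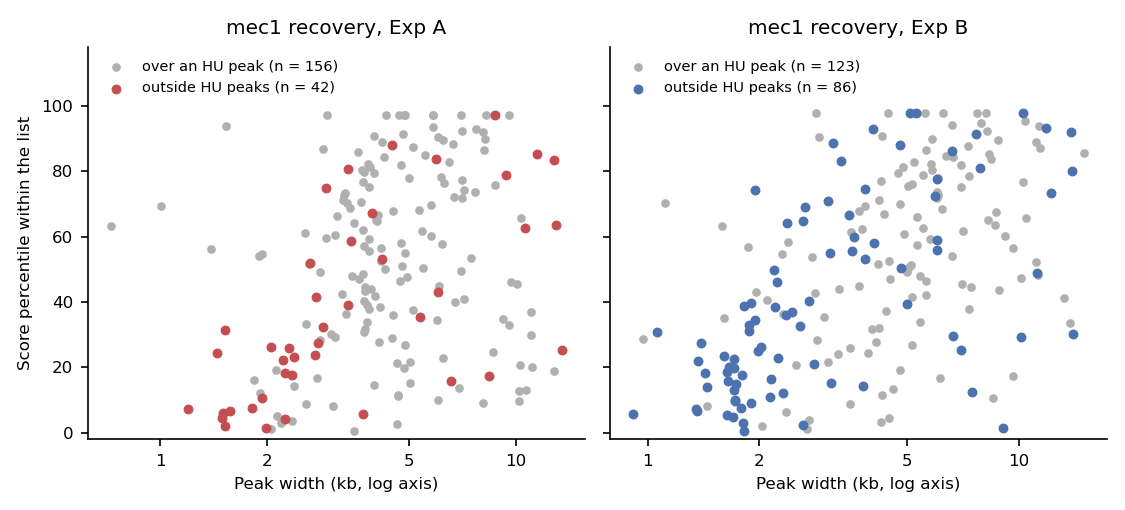
Peak width in kb (log axis) against score percentile within the list for every mec1 recovery peak, with Exp A on the left and Exp B on the right and 1 point per peak. Coloured points are peaks outside HU peaks (42 and 86) and grey points those over them (156 and 123); the coloured points crowd at narrow widths and low percentiles, with some of the widest and highest peaks among them.

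The distance to HU peaks differed between the experiments. In Exp A the gap to the nearest HU peak had a median of 10936.5 bp (range 92 to 59376), with 14 of 42 gaps within 5 kb and 13 over 20 kb. In Exp B the median was 4556.5 bp (71 to 49550), with 45 of 86 within 5 kb and 16 over 20 kb. Measured from the midpoint, 23.8% of Exp A peaks (12.1 to 39.5) and 40.7% of Exp B peaks (30.2 to 51.8) lay within 5 kb of an HU peak. Of all genome positions outside HU peaks, 26.7% lay within 5 kb of one. Within 10 kb lay 45.2% of Exp A peaks (29.8 to 61.3) and 57.0% of Exp B peaks (45.8 to 67.6), against 46.5% of those genome positions. The Exp A shares lay near those of genome positions. The Exp B shares lay above them at 5 kb and at 10 kb, and the intervals cover counting error only. A peak that touches no HU peak keeps its midpoint farther away than its own edge, the more so the wider it is. Single genome positions have no such limit, so these shares are not strictly alike and the comparison was not tested.

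**Figure D3:**
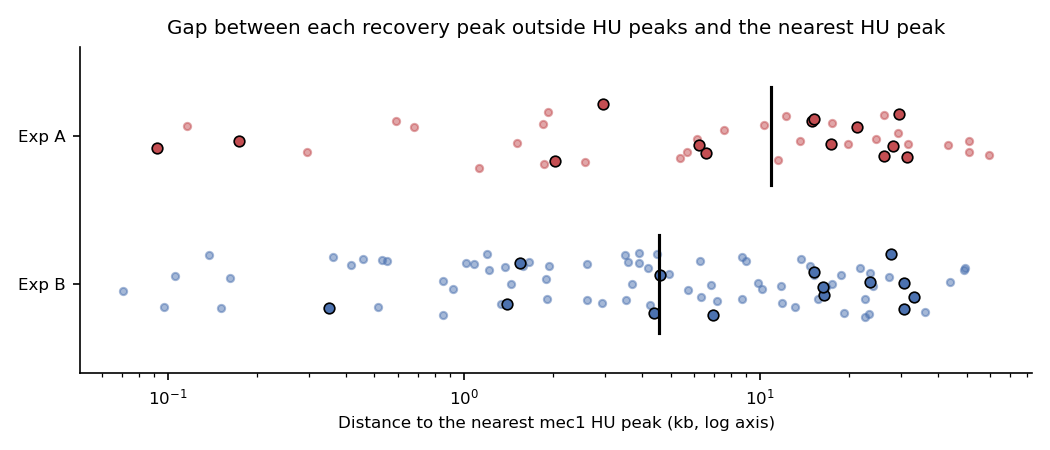
Distance in kb (log axis) from each recovery peak outside HU peaks to the nearest mec1 HU peak, with 1 point per peak, a vertical bar at the median of each experiment (10936.5 bp in Exp A, 4556.5 bp in Exp B) and dark outlined points for the peaks of the 14 recurring regions. Vertical spread within an experiment only separates the points; recurring peaks are found both within 1 kb of an HU peak and over 20 kb from one.

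At the edge of the choice, the members nearest to an HU peak were an Exp B peak at RET2, RPN12 and PRE4 (chromosome VI 249314 to 253120, 71 bp away), the Exp A peak at RPS6B and the Exp B peak at RRN5. Just outside the choice were 3 Exp B peaks that shared little with an HU peak, namely 239 bp at GND1 (chromosome VIII 470170 to 472946), 607 bp at PMR1 and CUP2 (chromosome VII 187315 to 191520) and 685 bp at GMC1 and PSP1 (chromosome IV 1458936 to 1461253). Within 500 bp of an HU peak there were 4 members in Exp A and 10 in Exp B. The count of recurring regions depended on the Control HU list more than on such edges, rising from 14 to 22 without that list and falling to 12 when HU peaks were widened by 500 bp on both sides.

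In the Control experiment the labels also describe HU peaks called over mock labelling without biotin and over G1, which on that reading share the HU library of the Control list called alone. These lists, not used in the choice, were longer (472 and 547 peaks, 17.3% and 18.7% of the genome). They overlapped 6 and 9 of the 42 Exp A peaks and 25 and 27 of the 86 Exp B peaks. In bases, the list over mock covered 27.2% of the Exp A peaks and 35.2% of the Exp B peaks, and the list over G1 covered 29.7% and 36.6%. Both values lay above the share of the genome in the list and below the 41.7% to 47.6% seen for recovery peaks over HU peaks. By the choice, all of these peaks lay outside the 3 lists called alone. Outside all 5 mec1 HU lists lay 33 of the 42 Exp A peaks and 59 of the 86 Exp B peaks. Among the 14 regions, those of GSM1, CDC8 and GAS5 were overlapped by both lists, over 59.8%, 76.2% and 69.3% of their length by the main peak, and the other 11 by neither.

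WT lists overlapped few of these peaks. The WT HU list of Exp C overlapped 4 of 42 and 9 of 86 (6.72% and 6.14% of their bases, against 3.97% of the genome), including the GSM1 region. The WT recovery list overlapped 3 of 42 and 9 of 86 (1.17% and 4.06% of bases, against 2.47% of the genome). Recovery peaks over HU peaks had 1.83% and 5.25% of their bases under it. In Exp A the 3 were the chromosome end at COS4, the left end of chromosome XV and the CDD1 region, which was the only one of the 14 with a WT recovery peak (chromosome XII 626744 to 628313, score 117.72). In Exp B the 9 included the peaks at ERG6 and YAP1 and at RRN5 and NHA1, both with the score of 3100. The 3 WT HU lists of the Control experiment overlapped 1 or 2 of the peaks in each recovery list.

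A further Exp A list, made from G1 DNA of mec1 cells after digestion with BamHI, a restriction enzyme, covered 14.8% of the genome. It overlapped 16 of 42 (38.1%) and 37 of 86 (43.0%) of the peaks outside HU peaks and covered 11.7% and 17.1% of their bases. Of the recovery peaks over HU peaks it overlapped 94 of 156 (60.3%) and 71 of 123 (57.7%), with 15.8% and 13.8% of their bases. Its peaks lay under 8 of the 14 regions, and in the DMC1 region 1 of them, with a score of 3132.84, took up 52.2% of the length. The 5 regions in no other list were those of TKL1, IMP3, MFA1, RET1 and HEH2. Leaving the BamHI list aside, 28 of 42 Exp A peaks (66.7%) were in no list beyond the mec1 recovery lists. The same held for 52 of 86 Exp B peaks (60.5%) and for 10 of the 14 regions. Absence from the mec1 HU lists called alone was fixed by the choice, and each WT list covered only 0.905% to 3.97% of the genome. Recovery peaks over HU peaks are in an HU list by the choice, so they give no comparison. These counts were therefore not read as places labelled only in mec1 recovery.

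**Figure D4:**
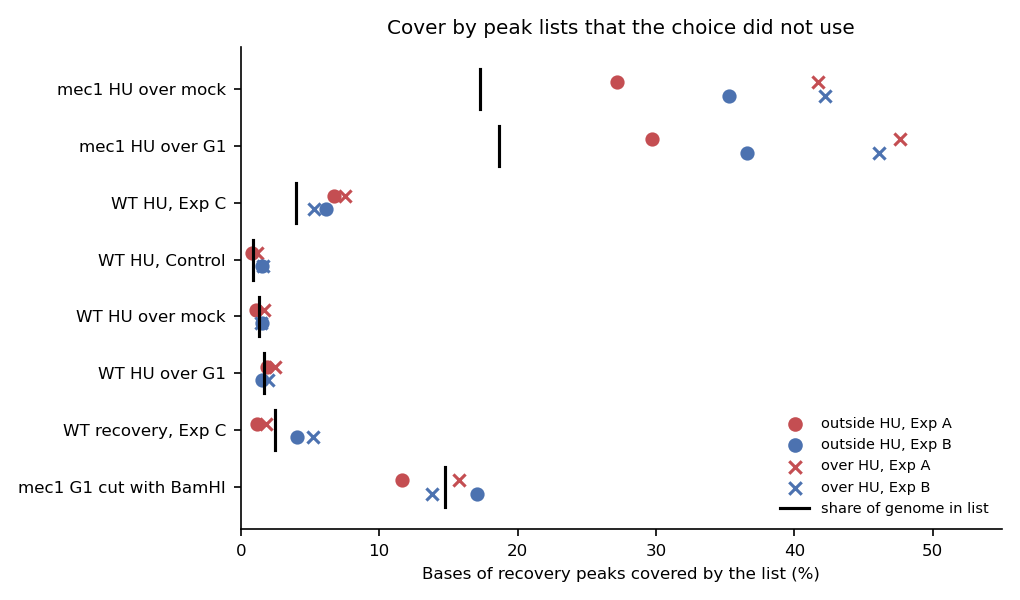
Percent of the bases of mec1 recovery peaks covered by each of the 8 lists that the choice did not use, for peaks outside HU peaks (circles) and over them (crosses) in Exp A and Exp B, with a vertical bar at the percent of the genome in that list. In the lists over mock and over G1 the circles lie at 27.2% to 36.6%, between the bar and the crosses; in the other lists all points are under 20%.

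The WT recovery list gives the same choice in cells with Mec1. There 126 of 137 recovery peaks (92.0%, 86.1 to 95.9) shared no base with the 2 WT HU lists called alone, against 21.2% and 41.1% in mec1. Those WT HU lists covered 4.63% of the genome, against 11.8% for the mec1 HU lists, and the WT peaks so chosen had a median width of 1562 bp. Both the smaller HU cover and the narrower peaks raise the WT share by construction. Their part in the difference was not tested, and WT recovery was measured once.

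The midpoint of a peak lay inside a gene for 59.5% of the Exp A peaks and 80.2% of the Exp B peaks outside HU peaks, against 73.6% of genome positions. The experiments differed in the same direction over HU peaks, with 51.9% and 73.2%, and the mec1 HU lists had 53.0% to 60.1%. Intervals between convergent genes, where transcription from both sides ends, held 6 of 42 midpoints in Exp A (14.3%) and 1 of 86 in Exp B (1.16%), against 3.99% of the genome. Over HU peaks it was 12.8% and 6.50%. The positions relative to genes therefore followed the experiment at least as much as the presence of an HU peak. In the 14 regions the centre of the common stretch lay inside a gene in 8.

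**Figure D5:**
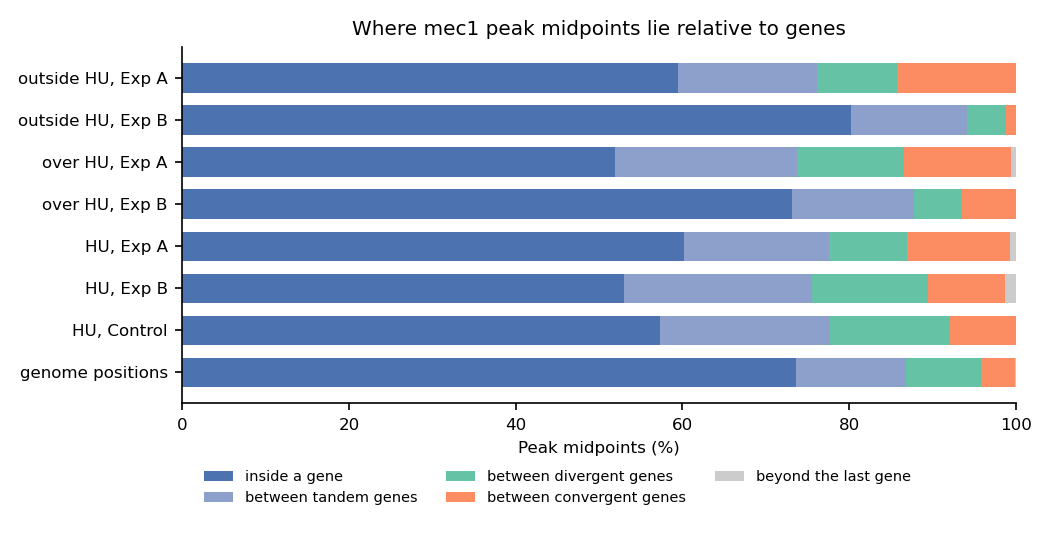
Percent of peak midpoints inside a gene, between tandem, divergent or convergent genes, or beyond the last gene, for mec1 recovery peaks outside and over HU peaks, for the 3 mec1 HU lists called alone and for positions along the whole genome. Bars run to 100%; the share inside a gene is 59.5% in Exp A and 80.2% in Exp B outside HU peaks, and 73.6% of genome positions.

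tRNA genes, which are transcribed by RNA polymerase III and are known places of fork pausing, lay under 7 of 42 peaks in Exp A (16.7%) and 7 of 86 in Exp B (8.14%). Over HU peaks the shares were 17.9% and 21.1%. Per 100 kb of peak the peaks outside HU peaks held 4.28 tRNA genes in Exp A and 2.07 in Exp B, against 4.29 and 4.28 over HU peaks and 2.28 in the genome. The Exp A density thus equalled that over HU peaks and the Exp B density lay near that of the genome. The 14 regions held 5 tRNA genes, which lay in the 4 regions named above by GSM1, CDC8, GAS5 and POX1, not always next to those genes.

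The outer 20 kb of chromosomes held 4 of the Exp A peaks (9.52%) and 2 of the Exp B peaks (2.33%), against 13.5% and 11.4% over HU peaks and 5.31% of the genome. Within 30 kb of a centromere lay 1 Exp A peak and 11 Exp B peaks (12.8%), against 2.56% and 13.8% over HU peaks and 7.96% of the genome. No peak outside HU peaks touched the ribosomal DNA on chromosome XII. Every chromosome held at least 1 in each experiment, from 1.28 per Mb on chromosome XIV to 8.72 on chromosome I in Exp A, and from 2.46 on chromosome II to 10.8 on chromosome X in Exp B. Chromosome XIV, lowest in Exp A, stood at 8.93 per Mb in Exp B.

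Among 18 gene lists with 779 entries, 2.70% of entries were overlapped in Exp A and 4.62% in Exp B, close to the 2.23% and 3.83% of all protein-coding genes. Genes overlapped in both experiments came from 4 lists, and all lie in the regions above. They included UGA4 of the nutrient transporters, RPS6B of the ribosomal proteins, GSH1 of oxidant defence and GAS5 of the cell wall. Transporters counted 4 of 57 in Exp A (7.02%), with CTR3, which imports copper, HXT3, a glucose transporter, and PTR2, which imports peptides, beside UGA4. In Exp B they counted 2 of 57 (3.51%), with the amino acid permease DIP5.

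Ribosomal proteins counted 2 of 138 in Exp A (1.45%) and 9 of 138 in Exp B (6.52%), against 2.23% and 3.83% of all protein-coding genes. Of the Exp B genes, RPL21B and RPS9A lay under the same peak (chromosome XVI 405573 to 409059, score 543.89), together with ATP4 of the mitochondrial ATP synthase. Ribosome biogenesis had 1 and 3 of 42 (2.38% and 7.14%), which were NHP2 in Exp A and RLP7, UTP10 and UTP13 in Exp B.

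Of 52 genes of the G1 to S transition and replication, none was overlapped in Exp A and 4 (7.69%, against 3.83% of all genes) in Exp B, namely the helicase factor CDC45, the S phase cyclin CLB6 and the G1 cyclins CLN1 and CLN2. Of 36 genes of cohesion and mitosis, none was overlapped in Exp A and 2 (5.56%) in Exp B, the mitotic cyclin CLB1 and the spindle checkpoint kinase BUB1. The difference between the experiments was not tested. CLB6 and CLB1 are neighbours on chromosome VII and had a peak each. The CLB6 peak (705454 to 707394, score 794.72) covered 91.7% of the gene and lay 1201 bp from an HU peak, and the CLB1 peak (703310 to 704669, score 65.34) covered 73.0%. No peak outside HU peaks overlapped a gene of the lists of checkpoint and repair (47 genes), histones (11), iron uptake (26) or glycogen and trehalose (21) in either experiment. Over all protein-coding genes the shares were only 2.23% in Exp A and 3.83% in Exp B. Empty lists of this length were therefore not read as avoidance. The checkpoint and repair list is not complete, so its empty count rests on the choice of genes. Overlapped genes that are not on it include SMC5 and the meiotic DMC1, both described above. NTG1 and ELG1 in Exp A and RAD28 and NSE5 in Exp B are others.

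The remaining lists had a few genes in 1 experiment or different genes in each. Pheromone response and mating counted 3 of 31 in Exp A (9.68%) and 1 in Exp B (3.23%), against 2.23% and 3.83% of all protein-coding genes. FUS1 and STE50 lay with HIS4 and the glutaredoxin gene GRX1 under a single Exp A peak (chromosome III 60260 to 73795, score 259.33), while GPA1, the pheromone G protein, was met in Exp B. Ergosterol synthesis counted 2 of 26 in each (7.69%), ERG1 and the regulator ECM22 in Exp A and ERG6 and ERG27 in Exp B. Glycolysis counted CDC19 and ENO1 of 25 in Exp A (8%) and TDH2 in Exp B (4%).

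Amino acid synthesis counted 1 of 65 (HIS4, 1.54%) in Exp A and 3 in Exp B (ARG1, LYS9 and MET3, 4.62%). Oxidant defence counted 2 of 29 in each (6.90%), GSH1 with GRX1 in Exp A and with YAP1 in Exp B. The cell wall counted 2 of 50 (4%) and 4 of 50 (8%), with DAN4 and the flocculation genes FLO1 and FLO11 beside GAS5 in Exp B. Respiration counted 3 of 54 in Exp B (ATP4, QCR10 and SDH2, 5.56%). Heat shock counted 1 of 25 in Exp A (HSP42, 4%) and the subtelomeric families 1 of 44 in Exp A (COS4, 2.27%). Beside these shares stand 2.23% (Exp A) and 3.83% (Exp B) of all protein-coding genes. The counts run from 0 to 9 genes per list, and no list was tested.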

How the data were processed

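In the 13 deposited peak lists every peak has coordinates and 1 score, assigned by the authors on a scale that the files leave unstated. Scores were never compared between lists except as ranks. For the samples of Exp A, B and C the submitters' processing notes name the build sacCer3 and the tools Bowtie2, BWA 0.6.2 and MACS 1.4.1, without roles, and the labels name MACS for the peak calls. The sources used here do not give filters, read lengths or caller settings. The labels name the HU lists used for the choice as called from 1 sample, and each recovery list as called against the HU library of its experiment. The titles of the lists over mock and over G1 name other material than their descriptions, which were followed.

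Positions were made 1-based by adding 1 to each deposited start, and the chromosome names of the BamHI list were translated. Overlap meant at least 1 shared bp. Genes came from the RefSeq table of assembly R64, with 6431 nuclear genes, and their strands from the systematic names. Chromosome lengths were taken as the furthest gene or peak (12.059 Mb in all) and centromeres as the midpoint between the last left-arm and the first right-arm gene. Counts, medians and exact Clopper-Pearson intervals (95%, counting error only) were computed with Python 3.11.15, pandas 2.3.3 and scipy 1.17.1, and the overlaps were checked on simulated peaks and against bedtools 2.31.1. No test was run, because 2 lists chosen by position allow none.

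The peaks and gene lists were chosen with earlier results of these data known. Named were all regions found in both experiments, the 5 highest scores per list and the 3 widest among peaks unpaired with a peak outside HU peaks, and the 3 peaks nearest the edge of the choice on each side. For a gene list, genes met in both experiments were named, otherwise at most 4 in alphabetical order, and further genes of lists were added after their positions were seen. Genes of a region were taken by nearness to its midpoint, and genes named with a background clause were picked among them after their positions were seen, as were the neighbours of list genes under the same peak. A gene of the regions is not reported here.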

Additional observations from a re-analysis of the deposited data

How the results depend on the processing

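The numbers of peaks outside HU peaks depended mainly on which HU lists were used. With the HU list of the same experiment only, 107 Exp A and 148 Exp B peaks and 24 regions were found; without the Control HU list, 67 Exp A peaks and 22 regions. Counting a peak as over HU only when 50% of it was covered gave 65 in Exp A and 21 regions. Other minimums moved the 14 regions to 9 (scores of at least 100) and 7 (midpoints within 1 kb). Within 200 bp at the midpoint, 1.19% of peaks met a tRNA gene (mean of both lists), against 12.4% over whole peaks. With at least 50% of a peak covered, the WT recovery list met 4.13% in place of 8.80%, and the HU list over G1 16.4% in place of 26.4%. Of the other 39 recomputed main values, counts moved by at most 1.5 times and values over both lists by at most 1 SD of those lists, a wide spread with 2 lists. Leaving 1 of 2 lists out always moves their mean by less than 1 SD. For values recomputed in that way the limit could not be passed, so it says nothing about their stability. Leaving out Exp A took midpoints inside a gene from 69.9% to 80.2%, past the 73.6% of the genome, and peaks at chromosome ends from 5.92% to 2.33%, past its 5.31%. No paired analysis was possible because no test was run. Depth is unknown in every library, so a place without an HU peak is one where none was called, not one shown to be unbroken.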
